A study of Mus musculus with 18 samples.

Results

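The genes described here are Trp53, which encodes the transcription factor p53, and 9 of its best known target genes: Cdkn1a, Trp53inp1, Mdm2, Ccng1, Gadd45a, Sesn1, Plk2, Phlda3 and Btg2. They were found as every array probe whose transcript accession maps to 1 of these 10 symbols, which gave 10 of the 20144 symbols and 12 of the 39429 probes on the array. Cdkn1a and Trp53inp1 had 2 probes each, and each probe is reported by itself. All 12 probes were among the 30484 that passed the filter on dim probes and were tested.

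p53 is kept at a low level in unstressed cells because Mdm2, a ubiquitin ligase and itself a p53 target, marks it for degradation. After DNA damage and other stresses p53 is stabilised, mostly at the level of the protein, and raises transcription of genes that stop the cell cycle, repair DNA or start cell death. In retinal ganglion cells, the neurons whose axons form the optic nerve, the p53 pathway has been studied as part of the response to axon injury, in which the kinase DLK acts upstream of JNK signalling.

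RNA came from whole mouse retinas taken 3 days after optic nerve crush, and the uninjured eye served as the control. All mice were homozygous for floxed DLK (gene symbol Map3k12) and received tamoxifen at 10 to 12 weeks of age. Cre-positive mice also carried a Cre-ERT transgene under the CAG promoter, which is active in many tissues, so recombination was not limited to ganglion cells, and the labels' protocols state that some DLK protein remained. Cre-negative mice were littermates without the transgene. The groups were Cre-positive crushed (5 arrays), Cre-positive uncrushed (5 arrays), Cre-negative crushed (3 arrays) and Cre-negative uncrushed (4 arrays). A further array, from a Cre-negative mouse, carries labels that disagree on whether the nerve was crushed, and it enters no comparison. Each array compared retinal cRNA labelled with Cy5 with a universal mouse reference RNA labelled with Cy3, and levels are given as log2 of Cy5 over Cy3 for one probe at a time. The reference was the same on every array, so differences between groups reflect the retinal channel, while the level of one probe cannot be set against that of another.

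Across the 18 arrays, the share of probes with Cy5 well above background was 68 to 76.2%. Map3k12 itself was lower in Cre-positive retinas by -0.45 on the log2 scale, averaged over crushed and uncrushed retinas (SE 0.08, limma adjusted p = 0.0081), with overlapping arrays. Neither genotype comparison passed by itself after adjustment over all 30484 probes. They gave -0.47 in crushed (SE 0.12, limma adjusted p = 0.063) and -0.43 in uncrushed retinas (SE 0.11, limma adjusted p = 0.89). Uncrushed arrays of the genotypes did not overlap, at 1.77 to 2.17 in Cre-positive and 2.21 to 2.58 in Cre-negative retinas. Crushed arrays overlapped slightly, at 1.84 to 2.34 and 2.32 to 2.61 in the same order. Whether the Map3k12 probe lies in the deleted exon is not given in the sources used here. The labels do not say which arrays come from the same animal, so p-values measure the spread between these samples. Crushed retinas sat at even and uncrushed retinas at odd positions of their slides, so position and crush cannot be told apart. Among 12 genes that mark ganglion cells, the summed Cy5 signal ranged from 167000 to 201000 in crushed and 210000 to 247000 in uncrushed Cre-positive retinas, and from 100000 to 117000 in crushed and 198000 to 232000 in uncrushed Cre-negative retinas. All 12 were above background on every array. Among 13 microglia and macrophage markers the sums were 58500 to 75500, 39900 to 54900, 50900 to 58300 and 45000 to 49200 in the same order of groups. Sums for rod and for Müller glia markers overlapped between all groups. In these bulk samples fewer cells of a type and less RNA per cell cannot be told apart.

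After crush 0 of the 12 probes passed the test in Cre-positive retinas (limma, Benjamini-Hochberg adjusted p under 0.05 over all probes tested). In Cre-negative retinas 2 passed as higher, the brighter Cdkn1a probe and Gadd45a, and none as lower. In Cre-positive retinas 0.735% of all probes passed in either direction and 0.646% passed as higher. The median of the 12 was 0.06 there, against 0.00049 over all probes, and 3 of the 12 had an unadjusted p under 0.05, as did 9.37% of all probes. In Cre-negative retinas 1.97% of all probes passed in either direction and 1.21% passed as higher. All 12 estimates were positive there, with a median of 0.15 against 0.0014 over all probes, and 7 of the 12 had an unadjusted p under 0.05, as did 13.2% of all probes. The difference between the crush responses, Cre-positive minus Cre-negative, passed for 1 probe, Cdkn1a, which was lower, where 0.358% of all probes passed and 0.243% passed as lower. Between crushed retinas of the genotypes, 2 probes were lower in Cre-positive retinas, Cdkn1a and 1 of the 2 for Trp53inp1, where 1.12% of all probes passed and 0.518% passed as lower. Between uncrushed retinas 0 of the 12 passed in limma, where 0.00984% of all probes passed, and 3 of the 12 had an unadjusted p under 0.05, as did 5.42% of all probes. These comparisons share arrays: the Cre-negative crushed arrays enter the Cre-negative crush response, the difference and the comparison of crushed retinas. With the array of disagreeing labels counted as Cre-negative uncrushed, 0 of the 12 probes passed in any of the 5 comparisons, and counted as Cre-negative crushed, 2 passed the Cre-negative crush test, 1 the difference and 1 the comparison of crushed retinas.

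**Figure D1:**
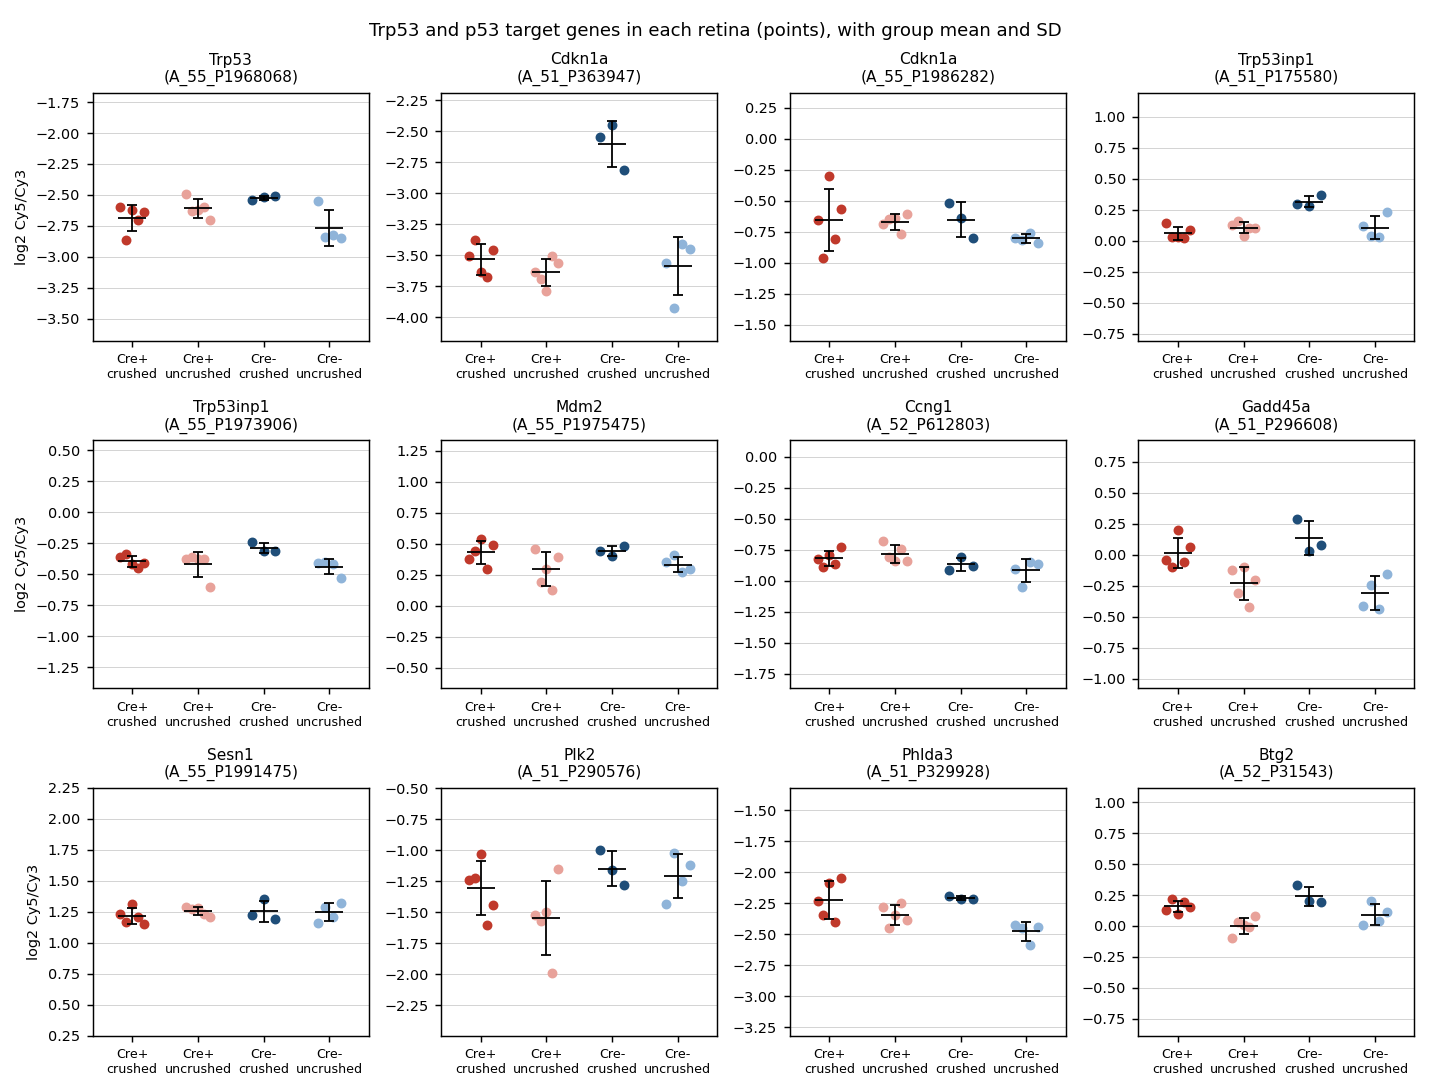
Level of each of the 12 probes on each array (points, log2 Cy5/Cy3) in the 4 groups, with the group mean and SD (lines); each panel covers the same span on the vertical axis. The brighter Cdkn1a probe stands between -2.81 and -2.45 in Cre-negative crushed retinas and at or below -3.38 in the other groups.

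**Figure D2:**
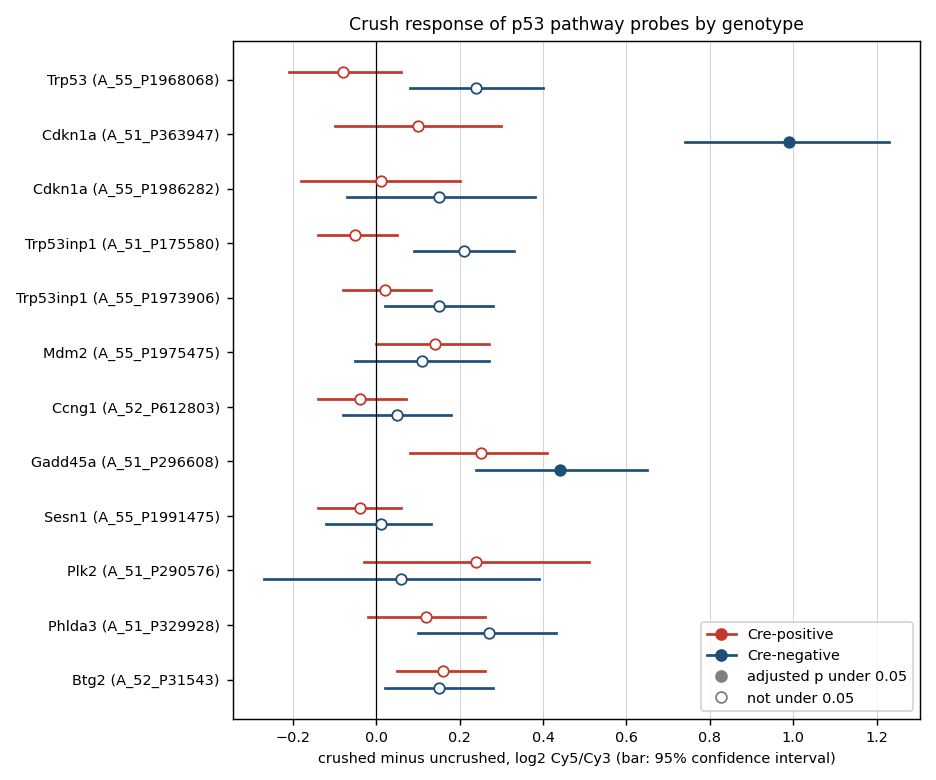
Crush response of each probe in Cre-positive and Cre-negative retinas (crushed minus uncrushed, log2 Cy5/Cy3, with 95% confidence interval); filled points passed the limma test at an adjusted p under 0.05. The 2 filled points are Cdkn1a at 0.99 and Gadd45a at 0.44, both in Cre-negative retinas.

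No test of the RNA of p53 itself passed. The Trp53 probe, for a gene on chromosome 11, read -2.60, -2.86, -2.62, -2.70 and -2.64 in Cre-positive crushed and -2.49, -2.63, -2.62, -2.60 and -2.70 in Cre-positive uncrushed retinas. These groups overlapped, and the crush response was -0.08 (95% interval -0.21 to 0.06, limma adjusted p = 0.75). It read -2.54, -2.52 and -2.51 in Cre-negative crushed and -2.55, -2.84, -2.82 and -2.85 in Cre-negative uncrushed retinas. Every crushed array was above every uncrushed one, but 1 uncrushed array lay next to the crushed ones. The Cre-negative crush response was 0.24 (SE 0.08) and missed the threshold (limma adjusted p = 0.15). Without that array, Cre-negative uncrushed replicate 1, it was 0.31 and passed (limma adjusted p = 0.031). Within slides that held both, the Cre-negative difference was 0.32, 0.32 and 0.29. Cre-negative uncrushed replicate 1 lay on a slide without a Cre-negative crushed array, so these differences leave it out too. The difference between the crush responses of Trp53 was -0.32 (95% interval -0.53 to -0.10, limma adjusted p = 0.34). Cre-positive minus Cre-negative was -0.16 among crushed retinas, without overlap (limma adjusted p = 0.34). Among uncrushed retinas, which overlapped, it was 0.15 (limma adjusted p = 0.89). The Trp53 probe was dim in the retinal channel, with a background-subtracted Cy5 signal of 57.1 to 104, and the normexp offset pulls ratios of dim spots toward 0.

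Mdm2, the ubiquitin ligase that both opposes p53 and is induced by it, read 0.38, 0.44, 0.54, 0.30 and 0.49 in Cre-positive crushed retinas, against 0.46, 0.19, 0.30, 0.13 and 0.39 in Cre-positive uncrushed ones. It read 0.44, 0.40 and 0.48 in Cre-negative crushed retinas, against 0.35, 0.41, 0.27 and 0.30 in Cre-negative uncrushed ones. Crushed and uncrushed arrays overlapped in both genotypes. The crush response was 0.14 (SE 0.06, limma adjusted p = 0.52) in Cre-positive and 0.11 (SE 0.08, limma adjusted p = 0.61) in Cre-negative retinas, with an upper 95% bound of 0.27 in each.

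Cdkn1a, which encodes p21, the inhibitor of cyclin-dependent kinases through which p53 arrests the cell cycle, showed the clearest difference of the 10 genes. Its brighter probe (A_51_P363947, printed at 10 spots on each array) read -3.51, -3.38, -3.64, -3.68 and -3.46 in Cre-positive crushed and -3.64, -3.69, -3.79, -3.51 and -3.56 in Cre-positive uncrushed retinas. It read -2.55, -2.45 and -2.81 in Cre-negative crushed and -3.56, -3.93, -3.41 and -3.45 in Cre-negative uncrushed retinas. The 3 Cre-negative crushed arrays stood above all other arrays in the comparisons, and the other groups overlapped one another. The array of disagreeing labels, outside the comparisons, read -2.37. By mean level the order was Cre-negative crushed (-2.60 ± 0.19, SD, n = 3), Cre-positive crushed (-3.53 ± 0.13, SD, n = 5), Cre-negative uncrushed (-3.59 ± 0.24, SD, n = 4) and Cre-positive uncrushed (-3.64 ± 0.11, SD, n = 5), of which the last 3 did not differ beyond their spread. The processed Cy5 signal, from the scanner software, averaged 239 and 194 intensity units in the crushed and uncrushed Cre-positive groups and 560 and 234 in the crushed and uncrushed Cre-negative groups.

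In Cre-positive retinas the crush response of this probe was 0.10 on the log2 scale (95% interval -0.10 to 0.30, limma adjusted p = 0.78). Crush raised it in Cre-negative retinas by 0.99 (SE 0.11, 1.98-fold, limma adjusted p = 3.5e-05). The difference between the responses was -0.88 (SE 0.15, 95% interval -1.20 to -0.57, limma adjusted p = 0.0065). Among crushed retinas the Cre-positive level was 52.3% of the Cre-negative level (-0.93, SE 0.11, limma adjusted p = 6e-05), while among uncrushed retinas the genotypes differed by -0.05 (95% interval -0.26 to 0.16, limma adjusted p = 0.97).

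The slides gave the same picture for this probe. The Cre-positive crush difference was -0.01, 0.19, 0.18 and 0.18 on the 4 slides that held both conditions, and the Cre-negative one was 1.12, 0.90 and 0.96 on 3 slides. Crushed retinas of both genotypes shared 2 slides, on which Cre-positive minus Cre-negative was -0.65 and -0.96. Spots of the probe on 1 array varied with an SD of 0.0394 to 0.125, over 7 to 10 usable spots. The difference between the responses missed the threshold with the processed signals (-1.14, limma adjusted p = 0.18) and with the Cy5 channel alone (-1.09, limma adjusted p = 0.071), and both estimates were larger than the -0.88 above. It also missed it with the array of disagreeing labels counted as Cre-negative uncrushed (-0.64, limma adjusted p = 0.61), as did the Cre-negative crush response (0.74, limma adjusted p = 0.17) and the difference between crushed retinas (-0.93, limma adjusted p = 0.06).

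The dimmer Cdkn1a probe (A_55_P1986282, assigned to another transcript accession) had Cy5 well above background on 7 of the 17 arrays, and so carries little information. It read -0.66, -0.96, -0.30, -0.81 and -0.57 in Cre-positive crushed retinas, against -0.69, -0.65, -0.64, -0.77 and -0.61 in Cre-positive uncrushed ones. It read -0.52, -0.64 and -0.80 in Cre-negative crushed retinas, against -0.80, -0.82, -0.76 and -0.84 in Cre-negative uncrushed ones, where it was well above background on 0 of 4 arrays and its level is only a bound. The groups overlapped in both genotypes. The fitted crush response was 0.01 (limma adjusted p = 0.98) in Cre-positive and 0.15 (SE 0.11, limma adjusted p = 0.60) in Cre-negative retinas. At this signal the probe could not show whether its transcript followed the brighter probe.

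The RefSeq table (GRCm38.p6) lists 2 start sites for Cdkn1a and 1 for Gadd45a, the genes called higher after crush in Cre-negative retinas. The windows below run from 250 bases before to 50 bases after each start, 5′ to 3′ on the gene's strand, and are shown because both genes passed the crush test in Cre-negative retinas. Capitals mark matches, on either strand, to the p53 half-site consensus and to the GC box GGGCGG, and no 2 of these matches overlap in the 3 windows. The first Cdkn1a window lies at chr17:29090729-29091028 (plus strand), the second at chr17:29093519-29093818 (plus strand), and that of Gadd45a at chr6:67037358-67037657 (minus strand). The array files name another build, so no probe is placed on these windows, and which start each Cdkn1a probe reads is not given in the sources used here.
Cdkn1a, first start: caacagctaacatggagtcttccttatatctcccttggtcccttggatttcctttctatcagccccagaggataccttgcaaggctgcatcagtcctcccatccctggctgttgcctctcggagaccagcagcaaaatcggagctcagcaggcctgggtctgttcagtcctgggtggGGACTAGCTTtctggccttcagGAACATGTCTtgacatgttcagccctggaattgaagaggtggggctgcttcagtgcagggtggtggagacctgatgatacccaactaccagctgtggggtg
Cdkn1a, second start: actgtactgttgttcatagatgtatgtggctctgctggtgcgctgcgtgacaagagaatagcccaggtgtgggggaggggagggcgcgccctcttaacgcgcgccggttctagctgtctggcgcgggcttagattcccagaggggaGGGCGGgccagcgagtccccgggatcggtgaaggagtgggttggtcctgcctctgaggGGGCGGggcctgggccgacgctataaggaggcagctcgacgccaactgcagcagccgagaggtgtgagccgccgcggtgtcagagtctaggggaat
Gadd45a: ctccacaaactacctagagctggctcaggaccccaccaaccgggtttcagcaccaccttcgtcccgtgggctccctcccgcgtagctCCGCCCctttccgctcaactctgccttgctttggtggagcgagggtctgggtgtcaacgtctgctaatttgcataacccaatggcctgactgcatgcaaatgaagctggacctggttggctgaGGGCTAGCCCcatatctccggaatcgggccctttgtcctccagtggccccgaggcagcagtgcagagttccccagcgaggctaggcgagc

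The first Cdkn1a window holds 2 p53 half-sites, GGACTAGCTT at position -73 and GAACATGTCT at position -51 from the start, and the second holds none but 2 GC boxes. The Gadd45a window holds the half-site GGGCTAGCCC at position -40 and a GC box in the opposite orientation. Of 11 windows found for 9 of the 10 genes, 6 hold at least 1 half-site, those of Ccng1, Cdkn1a, Gadd45a, Mdm2, Sesn1 and Trp53, against 8.36% of the 32851 windows in the table. Apart from Trp53 the genes were listed as known p53 targets, so this share is no result of these arrays. A GC box is in 8 of the 11 windows and 35.7% of all windows. The AP-1 site TGANTCA, to which Jun and Fos proteins bind, is in 0 of the 11 and 7.81% of all, and the element TGATGNAA, read by C/EBP and ATF factors, in 0 of the 11 and 3.97%. The cAMP response element TGACGTCA is in the windows of Btg2 and Plk2 and in 1.79% of all, and TATAAA is in that of Trp53 and in 13.6%. These are matches of letters on both strands and not measured binding sites.

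The probes of other genes that followed the brighter Cdkn1a probe most closely over the 17 arrays were those of Csrnp1, Ddit3, Ucn, Stbd1 and Phgdh. Likeness was the root-mean-square difference between probes, each centred on its own mean: 0.141 for Csrnp1, 0.163 for Ddit3, 0.183 for Ucn, 0.187 for Stbd1 and 0.192 for Phgdh, where Cdkn1a itself varied about its mean by 0.404. Csrnp1 encodes a nuclear transcription factor, Ddit3 the stress-induced transcription factor CHOP, Ucn the neuropeptide urocortin, Stbd1 a glycogen-binding protein and Phgdh the enzyme that opens serine synthesis. Their crush differences in Cre-positive retinas were 0.11 for Csrnp1, 0.09 for Ddit3, 0.20 for Ucn, -0.16 for Stbd1 and 0.05 for Phgdh. In Cre-negative retinas the differences were 0.83 for Csrnp1, 0.78 for Ddit3, 1.0 for Ucn, 1.04 for Stbd1 and 0.70 for Phgdh. These genes were chosen for this pattern, so the values are a description, and none of the 5 is among the p53 target genes listed here.

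**Figure D3:**
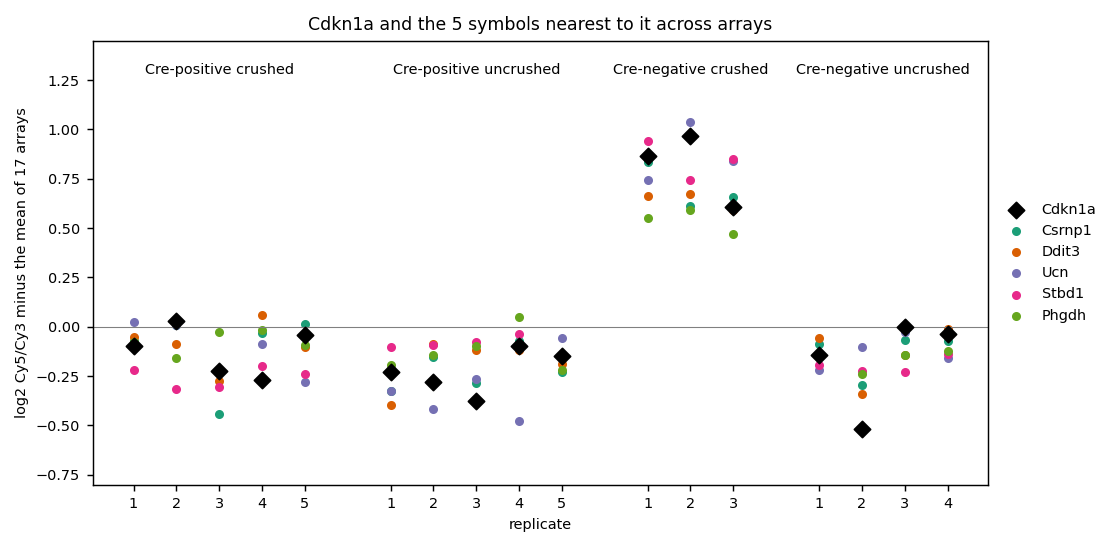
Level of the brighter Cdkn1a probe (black diamonds) and of the 5 nearest symbols (coloured points) on each of 17 arrays, as log2 Cy5/Cy3 minus the probe's mean over the arrays. All 6 are above their means on the 3 Cre-negative crushed arrays and near or below them on most others.

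Gadd45a, a stress-induced protein that binds p21 and activates p38 and JNK kinases through the kinase MEKK4, was the other member that crush raised in Cre-negative retinas. It read -0.04, -0.10, 0.20, -0.06 and 0.06 in Cre-positive crushed and -0.12, -0.31, -0.10, -0.42 and -0.20 in Cre-positive uncrushed retinas. It read 0.29, 0.03 and 0.08 in Cre-negative crushed and -0.41, -0.24, -0.44 and -0.15 in Cre-negative uncrushed retinas. Crushed arrays lay above uncrushed arrays in both genotypes, without overlap, although in Cre-positive retinas the nearest arrays, both at -0.10 after rounding, were nearly level. The Cre-positive response was 0.25 (SE 0.08, limma adjusted p = 0.25), and the Cre-negative response was 0.44 (SE 0.10, 1.36-fold, limma adjusted p = 0.017). Their difference was -0.20 (95% interval -0.46 to 0.06, limma adjusted p = 0.71), so no difference between the genotypes was shown. Within slides the crush difference was positive throughout, at 0.33, 0.18, 0.27 and 0.11 in Cre-positive and 0.32, 0.44 and 0.48 in Cre-negative retinas. The Cre-negative call was lost without Cre-negative crushed replicate 1 (0.37, limma adjusted p = 0.13), without Cre-negative uncrushed replicate 1 (0.41, limma adjusted p = 0.065) and without Cre-negative uncrushed replicate 3 (0.40, limma adjusted p = 0.063).

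Both relatives of Gadd45a also rose after crush in Cre-negative retinas. Gadd45b read -2.38 ± 0.25 (SD, n = 5) in Cre-positive crushed and -2.84 ± 0.14 (SD, n = 5) in Cre-positive uncrushed retinas. It read -2.17 ± 0.32 (SD, n = 3) in Cre-negative crushed and -2.92 ± 0.12 (SD, n = 4) in Cre-negative uncrushed retinas. Its response was 0.46 (SE 0.12, limma adjusted p = 0.10) in Cre-positive retinas and 0.74 (SE 0.14, limma adjusted p = 0.0077) in Cre-negative ones, and the difference of -0.29 missed the threshold (limma adjusted p = 0.71). Gadd45g gave 0.12 in Cre-positive retinas (limma adjusted p = 0.66) and rose by 0.46 (SE 0.10, limma adjusted p = 0.015) in Cre-negative ones, with a difference of -0.34 (limma adjusted p = 0.46). Among crushed retinas Gadd45g was lower in Cre-positive ones (-0.49, SE 0.09, limma adjusted p = 0.011), at -0.67, -0.59, -0.93, -0.87 and -0.50 against -0.18, -0.26 and -0.23 in Cre-negative ones, without overlap. The Cre-negative Gadd45b call was lost without Cre-negative crushed replicate 1 (0.63, limma adjusted p = 0.07) or replicate 3 (0.68, limma adjusted p = 0.058). The Cre-negative Gadd45g call was lost without Cre-negative crushed replicate 1 (0.44, limma adjusted p = 0.083) or replicate 3 (0.46, limma adjusted p = 0.06) and without Cre-negative uncrushed replicate 2 (0.43, limma adjusted p = 0.056). With the array of disagreeing labels counted as Cre-negative uncrushed, the Cre-negative calls of Gadd45b (0.59, limma adjusted p = 0.20) and Gadd45g (0.43, limma adjusted p = 0.065) were lost, and the Cy5 channel alone ended that of Gadd45g too (0.40, limma adjusted p = 0.063). The Gadd45g difference between crushed retinas was lost without Cre-negative crushed replicate 1 (-0.46, limma adjusted p = 0.068).

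Trp53inp1, a stress-induced partner of p53 that also acts in autophagy, differed between the genotypes among crushed retinas at its brighter probe (A_51_P175580). This probe read 0.14, 0.03, 0.03, 0.02 and 0.09 in Cre-positive crushed and 0.13, 0.16, 0.04, 0.10 and 0.10 in Cre-positive uncrushed retinas. It read 0.30, 0.28 and 0.37 in Cre-negative crushed and 0.12, 0.04, 0.03 and 0.23 in Cre-negative uncrushed retinas. The 3 Cre-negative crushed arrays lay above all others compared, by little over the highest uncrushed one. Among crushed retinas the Cre-positive level was 83.8% of the Cre-negative one (-0.25, SE 0.05, limma adjusted p = 0.025), and -0.28 and -0.16 on the 2 shared slides. The crush response was -0.05 (limma adjusted p = 0.80) in Cre-positive and 0.21 (SE 0.06, limma adjusted p = 0.074) in Cre-negative retinas, and their difference was -0.25 (SE 0.07, limma adjusted p = 0.26).

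The Trp53inp1 call between crushed retinas was lost with the slide as a fixed block (-0.24, limma adjusted p = 0.14) and with the array of disagreeing labels counted as Cre-negative crushed (-0.17, limma adjusted p = 0.23) or uncrushed (-0.25, limma adjusted p = 0.052). It was also lost without any one of Cre-negative crushed replicates 1, 2 and 3 and Cre-positive crushed replicates 2, 3 and 4, with estimates of -0.26, -0.27, -0.23, -0.25, -0.25 and -0.24 and limma adjusted p of 0.08, 0.07, 0.14, 0.052, 0.051 and 0.065. The Cre-negative crush response of this probe passed without Cre-negative uncrushed replicate 4 (0.25, limma adjusted p = 0.03). The second Trp53inp1 probe (A_55_P1973906) is assigned to the same transcript accession and pointed the same way with smaller differences. It read -0.36, -0.34, -0.42, -0.45 and -0.41 in Cre-positive crushed retinas, against -0.24, -0.31 and -0.31 in Cre-negative crushed ones, a difference of -0.11 (SE 0.06, limma adjusted p = 0.42) with no overlap of the arrays. Its crush response was 0.02 (limma adjusted p = 0.92) in Cre-positive and 0.15 (SE 0.06, limma adjusted p = 0.28) in Cre-negative retinas.

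Phlda3, which competes with Akt for membrane lipids, and Btg2, an antiproliferative factor that promotes mRNA deadenylation, did not pass any of the 5 tests. Phlda3 read -2.23, -2.35, -2.09, -2.40 and -2.05 in Cre-positive crushed retinas, against -2.28, -2.45, -2.35, -2.25 and -2.39 in Cre-positive uncrushed ones. It read -2.19, -2.22 and -2.22 in Cre-negative crushed retinas, against -2.43, -2.45, -2.59 and -2.44 in Cre-negative uncrushed ones. The Cre-negative groups did not overlap, while the Cre-positive ones did, with responses of 0.12 (SE 0.07, limma adjusted p = 0.60) in Cre-positive and 0.27 (SE 0.08, limma adjusted p = 0.11) in Cre-negative retinas. Btg2 read 0.13, 0.22, 0.10, 0.19 and 0.15 in Cre-positive crushed retinas, against -0.10, 0.03, 0.01, -0.01 and 0.08 in Cre-positive uncrushed ones, and here the groups did not overlap. It read 0.33, 0.20 and 0.19 in Cre-negative crushed retinas, against 0.01, 0.20, 0.04 and 0.11 in Cre-negative uncrushed ones, which overlapped. Its responses were close, at 0.16 (SE 0.05, limma adjusted p = 0.24) in Cre-positive and 0.15 (SE 0.06, limma adjusted p = 0.28) in Cre-negative retinas, with a difference of 0.01 (95% interval -0.16 to 0.17).

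Plk2, a polo-like kinase that acts at centrioles and synapses, varied most among the Cre-positive arrays. It read -1.24, -1.22, -1.03, -1.60 and -1.44 in Cre-positive crushed retinas, against -1.52, -1.57, -1.50, -1.99 and -1.15 in Cre-positive uncrushed ones. It read -1.0, -1.16 and -1.28 in Cre-negative crushed retinas, against -1.43, -1.02, -1.25 and -1.12 in Cre-negative uncrushed ones, and crushed and uncrushed arrays overlapped in both genotypes. The responses were 0.24 (95% interval -0.03 to 0.51, limma adjusted p = 0.59) and 0.06 (95% interval -0.27 to 0.39, limma adjusted p = 0.92) in Cre-positive and Cre-negative retinas. Among uncrushed retinas the genotypes differed by -0.34 (SE 0.14), which missed the threshold (limma adjusted p = 0.89).

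Ccng1, which encodes cyclin G1 and recruits protein phosphatase 2A to Mdm2, and Sesn1, a sestrin that restrains mTORC1 signalling, had small crush responses in both genotypes. Ccng1 averaged -0.82 ± 0.06 in Cre-positive crushed and -0.78 ± 0.07 in Cre-positive uncrushed retinas (SD, n = 5 each), and -0.87 ± 0.05 (SD, n = 3) in Cre-negative crushed and -0.92 ± 0.09 (SD, n = 4) in Cre-negative uncrushed retinas. Its responses of -0.04 and 0.05 in Cre-positive and Cre-negative retinas had 95% intervals of -0.14 to 0.07 and -0.08 to 0.18. Among uncrushed retinas Ccng1 differed by 0.13 between the genotypes (Cre-positive minus Cre-negative, SE 0.05). The arrays did not overlap there, but the test missed the threshold (limma adjusted p = 0.89). Sesn1 averaged 1.21 ± 0.06 in Cre-positive crushed and 1.26 ± 0.04 in Cre-positive uncrushed retinas (SD, n = 5 each), and 1.25 ± 0.09 (SD, n = 3) in Cre-negative crushed and 1.25 ± 0.07 (SD, n = 4) in Cre-negative uncrushed retinas. Its responses of -0.04 and 0.01 had 95% intervals of -0.14 to 0.06 and -0.12 to 0.13.

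Among 42 other p53 target genes, 41 were tested with 50 probes. After crush 2 probes rose and 0 fell in Cre-positive retinas, where 0.646% of all probes passed as higher. In Cre-negative retinas 3 rose and 0 fell, where 1.21% of all probes passed as higher. Medians over the list were 0.02 and 0.04 in the same order. None passed the tests of the difference or of genotype here, with 5 probes of the list at an unadjusted p under 0.05 for the difference (8.33% of all probes), 13 between crushed (13.8% of all probes) and 2 between uncrushed retinas (5.42% of all probes). The genes that rose encode proteins of cell death: Bbc3 (Puma, an activator of Bax and Bak), Fas (a death receptor) and Apaf1 (the scaffold of the apoptosome). Bbc3 read -1.33, -1.19, -1.02, -1.20 and -1.04 in Cre-positive crushed and -1.63, -1.75, -1.51, -1.83 and -1.50 in Cre-positive uncrushed retinas. It read -0.72, -0.82 and -0.89 in Cre-negative crushed and -1.66, -1.41, -1.58 and -1.59 in Cre-negative uncrushed retinas. Crushed arrays were above uncrushed ones in both genotypes without overlap. Bbc3 rose by 0.49 (SE 0.08, limma adjusted p = 0.0028) in Cre-positive and by 0.75 (SE 0.09, limma adjusted p = 5.2e-05) in Cre-negative retinas, and the difference of -0.26 missed the threshold (SE 0.12, limma adjusted p = 0.57). With the array of disagreeing labels counted as Cre-negative uncrushed, both Bbc3 calls were lost (0.49, limma adjusted p = 0.19, in Cre-positive and 0.59, limma adjusted p = 0.11, in Cre-negative retinas), and 0 probes of the list passed in either genotype. Among crushed retinas Bbc3 was at -0.35 in Cre-positive relative to Cre-negative ones (SE 0.09, limma adjusted p = 0.062), with no overlap of the arrays. This passed with array weights (-0.41, limma adjusted p = 0.0084), with the array of disagreeing labels counted as Cre-negative crushed (-0.36, limma adjusted p = 0.022), without Cre-positive uncrushed replicate 4 (-0.35, limma adjusted p = 0.043) and without that array and Cre-positive crushed replicate 5 (-0.37, limma adjusted p = 0.042). With processed signals Apaf1 passed the same comparison (-0.38, limma adjusted p = 0.039).

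Fas rose by 0.62 (SE 0.13, limma adjusted p = 0.034) in Cre-positive and by 0.69 (SE 0.16, limma adjusted p = 0.026) in Cre-negative retinas, with a difference of -0.07 (limma adjusted p = 0.96). Its Cre-positive call was lost without any one of Cre-positive crushed replicates 1 and 2, Cre-positive uncrushed replicates 1, 2, 3 and 4 and Cre-negative uncrushed replicate 1, where the estimate was 0.54 to 0.63. Its Cre-negative call was lost without any one of Cre-negative crushed replicates 1, 2 and 3 and Cre-negative uncrushed replicates 1 and 2, where it was 0.59 to 0.73. Without Cre-positive crushed replicate 5 and Cre-positive uncrushed replicate 4, the arrays with the highest sums of lens and of cornea markers, the Cre-positive Fas response was 0.41 (limma adjusted p = 0.095). With processed signals both Fas calls were lost (0.81, limma adjusted p = 0.069, in Cre-positive and 0.83, limma adjusted p = 0.092, in Cre-negative retinas), as they were with the array of disagreeing labels counted as Cre-negative uncrushed (0.62, limma adjusted p = 0.20, and 0.53, limma adjusted p = 0.30, in the same order). The Cy5 channel alone ended the Cre-negative one (0.79, limma adjusted p = 0.071). Apaf1 gave -0.08 in Cre-positive retinas (limma adjusted p = 0.70) and rose by 0.29 (SE 0.07, limma adjusted p = 0.037) in Cre-negative ones, and the difference of -0.37 missed the threshold (SE 0.09, limma adjusted p = 0.13). The Apaf1 call was lost without any one of Cre-negative crushed replicates 1, 2 and 3, Cre-negative uncrushed replicates 1 and 2 and Cre-positive uncrushed replicate 5, where it was 0.24 to 0.33, with the slide as a fixed block (0.28, limma adjusted p = 0.067), with no filter on dim probes (0.29, limma adjusted p = 0.051), with the Cy5 channel alone (0.36, limma adjusted p = 0.06) and with the array of disagreeing labels counted in either Cre-negative group (0.25 and 0.27, limma adjusted p = 0.061 as crushed and 0.12 as uncrushed). Bax, the effector downstream of Puma, read a response of 0.00 in Cre-positive and 0.04 in Cre-negative retinas, and Pmaip1 (Noxa) read 0.11 and 0.49, the second at a limma adjusted p of 0.20; these were named after their values were seen.

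Of 24 regulators and partners of p53, 23 were tested with 35 probes. After crush 0 passed in limma in either genotype, where 0.735% of all probes passed in Cre-positive and 1.97% in Cre-negative retinas. An unadjusted p under 0.05 was seen for 1 probe in Cre-positive and 5 in Cre-negative retinas, and for 9.37% and 13.2% of all probes. Between crushed retinas 1 of 2 probes for Hipk2, a kinase that phosphorylates p53, was lower in Cre-positive ones (-0.32, SE 0.06, limma adjusted p = 0.014). In that comparison 0.518% of all probes passed as lower. Its other probe went the opposite way without passing (0.20, limma adjusted p = 0.42), so the probes disagree. The called probe was not the brightest for Hipk2. With only the brightest probe of each gene kept, it dropped out and 0 probes of this list passed between crushed retinas. The Hipk2 call was lost without Cre-negative crushed replicate 1 (-0.31, limma adjusted p = 0.08) or replicate 3 (-0.31, limma adjusted p = 0.079), with processed signals (-0.38, limma adjusted p = 0.17), with the Cy5 channel alone (-0.38, limma adjusted p = 0.24) and with the slide as a fixed block (-0.33, limma adjusted p = 0.085). Among 20 paralogs of the 10 genes, 19 were tested with 21 probes. Gadd45b and Gadd45g were the 2 that rose in Cre-negative retinas, where 1.21% of all probes passed as higher. In Cre-positive retinas 0 passed in limma, where 0.735% of all probes passed, and 3 had an unadjusted p under 0.05, as did 9.37% of all probes. Of 15 DNA damage repair genes, 13 were tested with 14 probes, and 0 passed any of the 5 tests in limma. In these tests 0.00984 to 1.97% of all probes passed. In each test 0 to 2 of the 14 had an unadjusted p under 0.05, as did 5.42 to 13.8% of all probes. Some genes stand in more than 1 list.

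**Figure D4:**
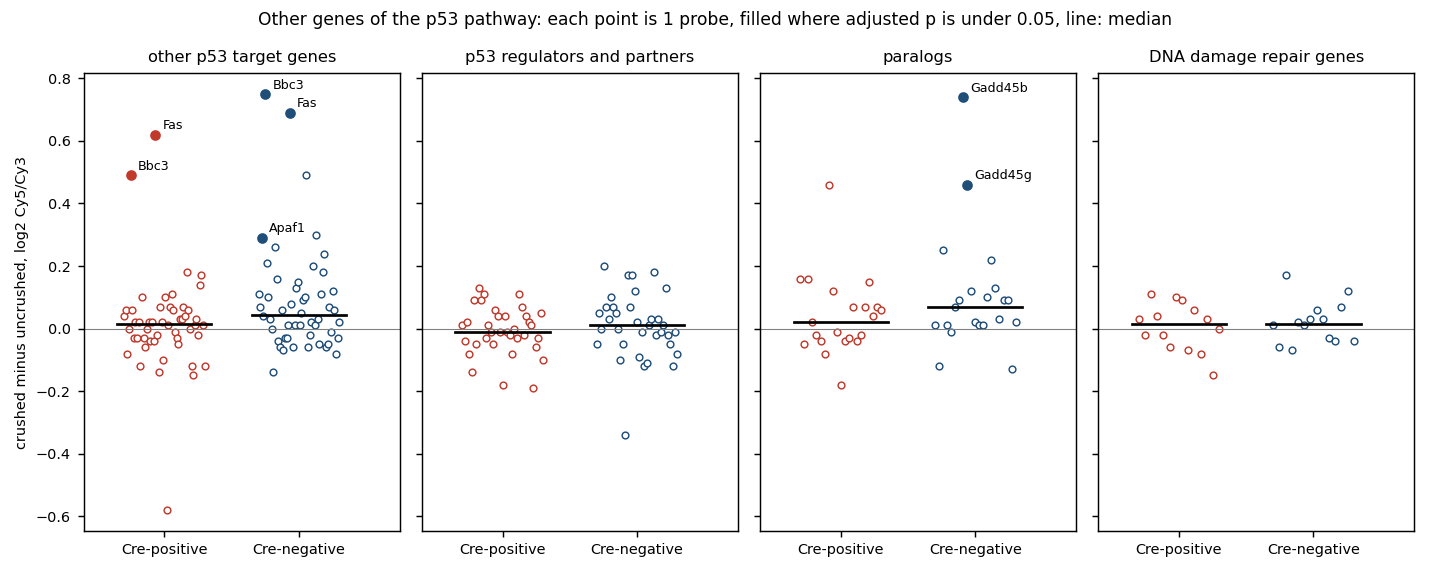
Crush response (crushed minus uncrushed, log2 Cy5/Cy3) of every tested probe of 4 further gene lists in Cre-positive and Cre-negative retinas; filled points passed the limma test at an adjusted p under 0.05 and lines are list medians. Medians lie near 0, and the named points are Fas and Bbc3 in both genotypes and Apaf1, Gadd45b and Gadd45g in Cre-negative retinas.

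Cell-type markers moved with crush beside these genes. Of 15 ganglion cell probes, 5 fell in Cre-positive and 12 in Cre-negative retinas, where 0.0886% and 0.768% of all probes passed as lower. Of 9 Müller glia probes, 1 fell in Cre-positive retinas, that of Glul (-0.50, SE 0.11, limma adjusted p = 0.048), and 0 in Cre-negative ones. Of 18 microglia and macrophage probes, 9 rose in Cre-positive and 4 in Cre-negative retinas, where 0.646% and 1.21% of all probes passed as higher. The part of these cell types in the values of Cdkn1a, Gadd45a, Trp53inp1, Bbc3 and Fas was not tested. The summed signal of 8 pigment epithelium markers was 6580 to 22400 in crushed and 7410 to 21500 in uncrushed Cre-positive retinas. In Cre-negative retinas it was 6590 to 10100 in crushed and 7700 to 13500 in uncrushed ones. The part of this tissue in the genotype comparisons was not tested. The summed signal of 12 lens markers was 15000 in Cre-positive crushed replicate 5 and at most 3110 on the other arrays compared. That of 9 cornea, iris and ciliary body markers was 15000 to 67000 in crushed and 9870 to 108000 in uncrushed Cre-positive retinas, and 9140 to 13200 in crushed and 8640 to 38300 in uncrushed Cre-negative retinas, with the highest value in Cre-positive uncrushed replicate 4. With both arrays left out, an alternative added after the data were seen, 0 of the 12 probes passed in Cre-positive and 2 in Cre-negative retinas, 1 passed the test of the difference and 1, Cdkn1a, that between crushed retinas.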

How the data were processed

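The deposited scanner files hold, per the file headers, median spot and local background intensities in both dyes and processed signals, also intensities, from Agilent Feature Extraction 10.7.3.1. A log10 ratio of the processed dyes, Cy5 over Cy3, is deposited too and was not used. The authors' deposited values, 1 for each probe and array, are taken to be log2. On each array their r with the ratios below was 0.9994 to 1 over the probes, but r cannot show the base of a logarithm. Their medians per array were 0.015 to 0.0237, and those of the log2 ratios below were 0.012 to 0.024. The submitters' processing notes name limma.

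Here median intensities were turned into ratios with limma 3.58.1 under R 4.3.3 (files read with version 1.17.8 of data.table) by normexp background correction (offset 50) and loess within arrays. The plan said only spot intensity; the files hold medians. Outlier spots were left out, spots of a probe averaged, and probes kept with Cy5 well above background on at least 3 of 17 arrays. Of the 30484 kept, 21903 had a symbol. The 4 group means were fitted in limma (13 residual and 4.6 prior degrees of freedom) with 5 two-sided contrasts, Benjamini-Hochberg adjusted over all probes tested at a threshold of 0.05. A further contrast, the genotype difference averaged over crushed and uncrushed retinas, was read for Map3k12 only. The number of arrays limits precision.

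The members, lists and tests were chosen with earlier results of these data known. Named beside the members were list genes passing any contrast and the 5 symbols nearest to Cdkn1a. Of the marker genes Cd68 was not matched. The fit was tested on simulated data. The alternatives were other background corrections, scalings, filters and probe choices, the authors' table, slide blocks, array weights, the array with disagreeing labels and each array left out.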

Additional observations from a re-analysis of the deposited data

Results flagged for a closer look

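Cdkn1a (brighter probe) responded differently to crush in the genotypes, with a Cre-positive minus Cre-negative difference of -0.88 by limma's interaction contrast (adjusted p = 0.0065).

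Among 36 combinations of probe and group with 4 or 5 arrays, 4 had an array far from the others by Dixon's criterion, which chance alone meets in about 1 of 20. Trp53 read -2.55 in Cre-negative uncrushed replicate 1, against -2.85 to -2.82 in the others of that group. The dimmer Trp53inp1 probe read -0.60 in Cre-positive uncrushed replicate 5, against -0.38 to -0.36, and -0.53 in Cre-negative uncrushed replicate 4, against -0.42 to -0.40. Phlda3 read -2.59 in Cre-negative uncrushed replicate 3, against -2.45 to -2.43.

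The array with disagreeing labels lay above all 9 uncrushed arrays at 3 probes. It read -2.37 for the brighter Cdkn1a probe, where uncrushed arrays read -3.93 to -3.41. It read -0.29 for the dimmer Trp53inp1 probe, against -0.60 to -0.36, and -0.02 for Gadd45a, against -0.44 to -0.10. At the brighter Trp53inp1 probe, by contrast, this array read -0.02, below all 17 arrays compared, whose lowest value was 0.02. There the Cre-negative arrays read 0.28 to 0.37 after crush and 0.03 to 0.23 without it. The signal summed over 12 ganglion cell markers was 118000 on this array. In Cre-negative retinas the crushed arrays summed to 100000 to 117000 and the uncrushed ones to 198000 to 232000. The lens marker sum of this array was 12200, against at most 3110 on the others apart from Cre-positive crushed replicate 5 (15000). Its pigment epithelium marker sum was 26600, where the arrays compared reached 22400 at most. The array lay at position 4 of its slide, and all crushed arrays lay at even positions. These values were not used to assign it to a group.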

How the results depend on the processing

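Under 30 alternatives, 1 of them added after the data were seen, 0 of 1790 values of the member probes reversed a call, 20 lost it and 5 gained it, while 74 values without a call changed sign. Most of the 1790 had no call to lose. Of the 30 alternatives, 10 ended the Trp53inp1 call between crushed retinas and 5 the Cre-negative Gadd45a call. For Cdkn1a, 1 ended the Cre-negative crush call, 3 that of the difference and 1 that between crushed retinas. The count of member probes called stayed at 0 for the crush response in Cre-positive retinas and for the Cre effect in uncrushed retinas in all 30. In Cre-negative retinas the count called after crush, 2 in the report, was 1 with processed signals, 4 with array weights, 0 with the array of disagreeing labels as Cre-negative uncrushed, and 1 to 3 leaving out each array in turn. The count for the difference between the responses, 1 in the report, was 0 with processed signals, 0 with the Cy5 channel alone and 0 with that array as Cre-negative uncrushed, and 1 throughout when each array was left out. The count between crushed retinas, 2 in the report, was 1 with the slide as a fixed block, 0 with that array as Cre-negative uncrushed, 1 with it as Cre-negative crushed, 1 without both arrays highest in cornea or lens markers, and 1 to 2 leaving out each array. The cause of these moves was not tested. Averaged over crushed and uncrushed retinas, Map3k12 was lower in Cre-positive ones under every alternative, by -0.54 to -0.42. Over all probes the number called ranged from 12 to 265 for the Cre-positive crush response (224 in the report), from 88 to 1363 for the Cre-negative one (602), from 0 to 165 for the difference (109), from 138 to 611 between crushed retinas (340) and from 1 to 3 between uncrushed ones (3). Array weights also brought Phlda3 (0.27, limma adjusted p = 0.026) and the brighter Trp53inp1 probe (0.21, limma adjusted p = 0.024) past the threshold in Cre-negative retinas, and no background subtraction did so for Trp53 (0.25, limma adjusted p = 0.043). Gadd45a lost its call with processed signals (0.43, limma adjusted p = 0.066). No paired analysis was possible because the labels give no replicate numbers or animals. Signal over background limits the dimmer Cdkn1a probe and Trp53, whose changes the offset understates.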
